A study of Homo sapiens with 6 samples.

Results

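The genes described here are 9 amino acid transporter genes of the human line SAS, derived from a squamous cell carcinoma: SLC3A2, SLC7A5, SLC7A6, SLC7A11, SLC7A1, SLC1A4, SLC1A5, SLC38A1 and SLC38A2, out of 62700 genes in the count table. They were picked from the knockdown comparison itself, around the low read counts of SLC7A5 and SLC3A2 after IGF2BP1 knockdown, so their differences between the groups are given as a description. How many of them the fit over all genes called is stated once, beside the share of all genes called, and supports nothing. Poly(A) RNA was sequenced from 3 libraries of cells given an siRNA against IGF2BP1 and 3 libraries of cells given a control siRNA. The labels list the genotype of the controls as WT. They do not give the siRNA sequence, the time after transfection or whether replicates were separate cultures. The p-values set the difference between the groups against the spread of libraries within them, and that spread may be only technical. All 9 genes passed the filter on low counts that left 14649 genes for the fit.

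Cells import amino acids through families of carriers that differ in substrate and in what drives them. The SLC7 light chains LAT1 (SLC7A5), y+LAT2 (SLC7A6) and xCT (SLC7A11) reach the plasma membrane bound by a disulfide bridge to the heavy chain 4F2hc (CD98), the product of SLC3A2. LAT1 imports leucine and other large neutral amino acids in exchange for intracellular ones such as glutamine, y+LAT2 exchanges cationic for neutral amino acids, and xCT imports cystine in exchange for glutamate. CAT1 (SLC7A1) carries arginine and lysine without a heavy chain. ASCT1 (SLC1A4) and ASCT2 (SLC1A5) are sodium-dependent neutral exchangers, and SNAT1 (SLC38A1) and SNAT2 (SLC38A2) take up glutamine and alanine with sodium. Imported leucine and arginine are sensed at the lysosome by the pathway that activates mTORC1, and shortage of amino acids raises many transporter mRNAs through the transcription factor ATF4.

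The windows of 300 bases around annotated transcription starts are shown because many amino acid transporter genes are known to respond to ATF4 and to MYC, and the windows show which members hold the letters these factors read. The RefSeq table used here (GRCh38.p14) held 14 such windows, from 250 bases before to 50 bases after a start, for 8 of the 9 members, all but SLC7A11. Which start SAS cells use cannot be read from gene counts. SLC7A5 had 1 window, on the minus strand of chr16:87869458-87869757, with a GC content of 80.3% against a median of 58.7% over all windows. Of the 3 windows of SLC3A2, the one on the plus strand of chr11:62881449-62881748 is printed, with a GC content of 62.7%. It was chosen because it held a motif match, and the other windows of SLC3A2 held none. Capitals mark the motif matches described next.
SLC7A5: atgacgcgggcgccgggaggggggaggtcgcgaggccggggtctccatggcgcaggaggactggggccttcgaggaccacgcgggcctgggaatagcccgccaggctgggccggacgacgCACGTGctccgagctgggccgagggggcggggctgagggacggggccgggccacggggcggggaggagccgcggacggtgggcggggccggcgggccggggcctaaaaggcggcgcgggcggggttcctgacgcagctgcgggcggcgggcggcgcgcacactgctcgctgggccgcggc
SLC3A2: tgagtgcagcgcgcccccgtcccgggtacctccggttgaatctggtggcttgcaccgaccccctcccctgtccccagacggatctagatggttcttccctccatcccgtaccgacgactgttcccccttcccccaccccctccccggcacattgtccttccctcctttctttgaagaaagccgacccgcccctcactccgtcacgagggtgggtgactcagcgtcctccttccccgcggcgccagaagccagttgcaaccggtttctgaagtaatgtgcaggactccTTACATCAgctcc

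Windows were searched on both strands for TGATGNAA, the core of the composite ATF4 and C/EBP element, for CACGTG, the E-box read by MYC and other factors, and for GGAATG, the core of TEAD sites. TGATGNAA or its reverse complement was present in 5 of the 14 windows, 1 each of 5 members, against 3.62% of all 35116 windows of the same length. The matches are printed in capitals with their flanks, and the positions are those of the first base of the match relative to the start. They lay 7 bases before the start in SLC1A4 (chr2:64989376-64989415, plus strand), 97 bases before it in SLC1A5 (chr19:46784888-46784927, minus strand) and 4 bases before it in SLC38A1 (chr12:46266497-46266536, minus strand). In SLC3A2 (chr11:62881720-62881748, plus strand) the match lay 37 bases after the start, and in SLC7A1 (chr13:29595658-29595697, minus strand) 7 bases after it. Of these starts only that of SLC7A1 lay at the outer 5' end of the gene in GENCODE. Those of SLC1A4, SLC1A5, SLC38A1 and SLC3A2 lay inside the gene. The windows at the outer 5' end of SLC1A4, SLC1A5 and SLC3A2 held no match to any of the motifs.
SLC1A4: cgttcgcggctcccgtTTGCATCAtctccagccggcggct
SLC1A5: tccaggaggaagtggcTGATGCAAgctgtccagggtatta
SLC38A1: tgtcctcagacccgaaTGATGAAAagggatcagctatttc
SLC3A2: taatgtgcaggactccTTACATCAgctcc
SLC7A1: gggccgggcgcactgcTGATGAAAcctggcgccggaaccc
The single SLC7A5 window held no TGATGNAA and 1 CACGTG, 130 bases before the start. CACGTG was also present in 1 window of SLC1A5, and these 2 of 14 windows compare with 7.26% of all windows. GGAATG was present in 1 of 14 windows, at the start of SLC1A5 whose window also holds TGATGNAA, against 14% of all windows. The printed matches do not overlap each other, and a match is a description, not evidence of binding.

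The knockdown was visible in the targeted mRNA: IGF2BP1 had 29, 25 and 21 reads in knockdown libraries 1 to 3, against 185, 223 and 292 reads in control libraries 1 to 3. Library totals ran between 17918496 and 25926371 reads in knockdown libraries and between 23775889 and 26675064 reads in control libraries, so that 3 reads were worth 0.112 to 0.167 CPM (read counts scaled to library size) before TMM scaling. This floor covers counting error only. Knockdown 1 stood apart in RNA5-8SN3, a ribosomal RNA without a poly(A) tail, at 543 CPM against 21.3 to 50.7 CPM in the other libraries. RN7SL1, the RNA of the signal recognition particle, which also lacks a poly(A) tail, had 368, 447 and 60.1 CPM in knockdown libraries 1 to 3, against 33.9, 139 and 18.3 CPM in control libraries 1 to 3. It was highest in knockdown 2, and knockdowns 1 and 2 lay above all controls. Of 8 squamous epithelial markers all were tested, and their summed level was 3356 to 3597 CPM in knockdown libraries and 7041 to 7756 CPM in control libraries. KRT5, KRT6A, KRT14 and CDH1 fell, 4 of the 8, beside 6.66% lower of all tested genes. The other 4 were not called, among them SFN, at 1333 CPM in knockdown and 1374 CPM in control libraries. Fibroblast markers summed to 5.72 to 9.24 CPM in knockdown and 6.37 to 8.50 CPM in control libraries with COL3A1, DCN, LUM and THY1 at 0. Of 3 tested 1, PDGFRB, rose, beside 6.27% higher of all tested genes. Leukocyte markers summed to 21.4 to 26.1 CPM in knockdown and 24.5 to 28.0 CPM in control libraries with PTPRC and CD3E at 0. Endothelial markers summed to 6.61 to 14.2 CPM in knockdown and 6.33 to 8.56 CPM in control libraries, with CLDN5, EMCN and KDR at 0. The part of the epithelial marker difference in the transporter differences was not tested. Across all 14649 tested genes edgeR called 918 genes higher and 975 lower at an adjusted p under 0.05. Genes called higher made up 48.5% of calls, or 63.2% when libraries were not scaled, where the median log2 fold change of all genes was 0.12 and not 0.03.

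The heavy chain gene SLC3A2 and the light chain gene SLC7A5 were at 34.6% and 37.9% of their control level after knockdown. SLC3A2 (ENSG00000168003; GRCh38 chromosome 11, 62856102 to 62888875, plus strand) had 1045, 972 and 973 CPM in knockdown libraries 1 to 3, against 2955, 2956 and 2743 CPM in control libraries 1 to 3. The groups were far apart, and the knockdown libraries lay close together. Its mean was 996.7 ± 42.0 CPM in knockdown and 2885 ± 123 CPM in control libraries (SD, n = 3 each), a log2 fold change of -1.53 (SE 0.10) or 34.6% of control. SLC7A5 (ENSG00000103257; chromosome 16, 87830023 to 87869488, minus strand) had 2811, 2027 and 2234 CPM in knockdown libraries 1 to 3, against 6396, 6159 and 6081 CPM in control libraries 1 to 3. Every knockdown library lay below every control library, and knockdown 1 was the highest of its group. The mean was 2357 ± 406 CPM in knockdown and 6212 ± 164 CPM in control libraries (SD, n = 3 each), a log2 fold change of -1.40 (SE 0.12) or 37.9% of control. In bulk RNA, fewer cells with a transcript and less of it per cell cannot be told apart.

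**Figure D1:**
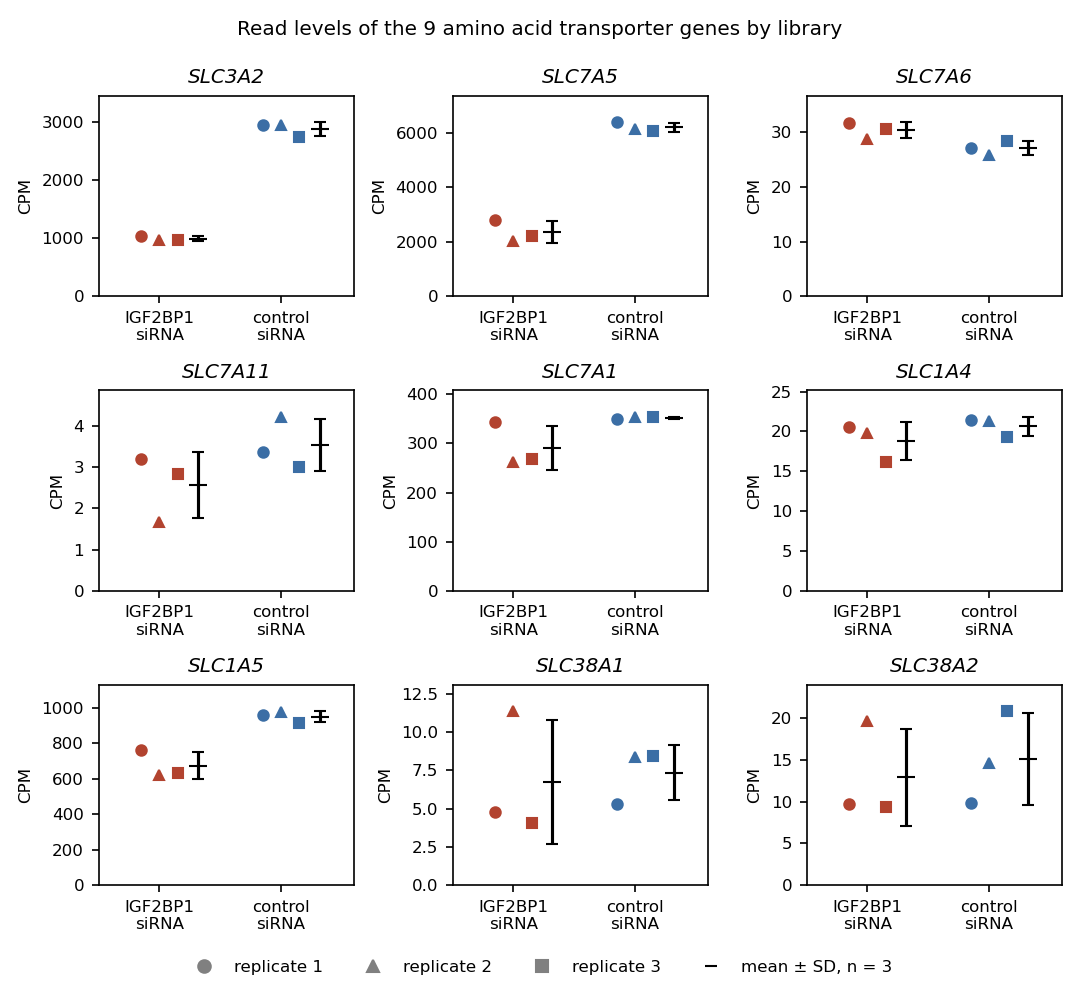
Read levels in CPM (linear axes from 0) of the 9 transporter genes in the 3 IGF2BP1 siRNA and the 3 control siRNA libraries; points are libraries and bars the mean ± SD. The groups are separate for SLC3A2, SLC7A5, SLC1A5, SLC7A1 and SLC7A6, while SLC38A1 and SLC38A2 are spread within each group, with knockdown 2 at 11.4 and 19.6 CPM.

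SLC7A5 and SLC3A2 were also among the most abundant transcripts of the line, and together they made up 0.391%, 0.320% and 0.322% of the counted reads in knockdown libraries 1 to 3, against 0.898%, 0.888% and 0.862% in control libraries 1 to 3. Per kilobase of the deposited gene length (TPM, length-scaled reads that sum to the same total in each library), SLC7A5 stood at 1574 ± 279 TPM in knockdown and 4012 ± 68.1 TPM in control libraries (SD, n = 3 each), which ranked it 89 in knockdown and 29 in control libraries among all genes. SLC3A2 stood at 496.0 ± 27.4 TPM in knockdown and 1389 ± 50.9 TPM in control libraries, at rank 339 in knockdown and 105 in control libraries. Among the 6 light chain genes that pair with 4F2hc (SLC7A5, SLC7A6, SLC7A7, SLC7A8, SLC7A10 and SLC7A11), SLC7A5 held 98.7% ± 0.108 of the summed TPM in knockdown and 99.6% ± 0.00255 in control libraries (SD, n = 3 each). The part of transcript base composition in these ranks and shares was not tested.

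The level of SLC7A5 per SLC3A2 level was of similar size in both groups. On the TPM scale it was 3.61, 2.798 and 3.08 in knockdown libraries 1 to 3, against 2.90, 2.796 and 2.98 in control libraries 1 to 3, so the groups overlapped. The mean was 3.16 ± 0.411 in knockdown and 2.89 ± 0.0904 in control libraries (SD, n = 3 each). The size of this ratio rests on the length used, because the deposited length of SLC3A2, 6392 bases, is much longer than its longest principal transcript in GENCODE, 2161 bases, while for SLC7A5 the lengths are 4764 and 4537 bases. With principal transcript lengths, an alternative added after seeing the data, the ratio was 1.28, 0.993 and 1.09 in knockdown libraries and 1.03, 0.992 and 1.06 in control libraries.

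**Figure D2:**
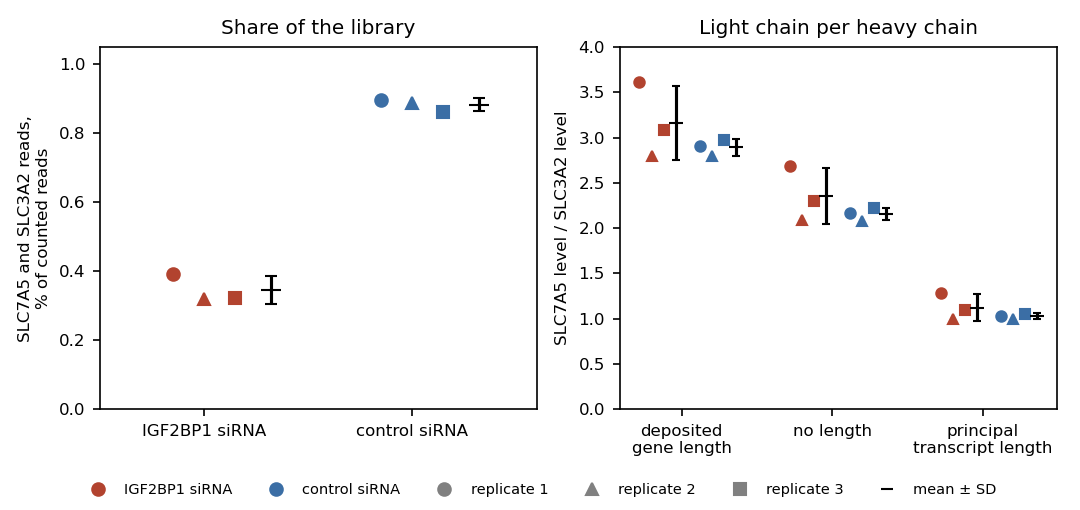
Left, the share of counted reads (%) held by SLC7A5 and SLC3A2 together in each library, 0.320 to 0.391% after IGF2BP1 siRNA and 0.862 to 0.898% after control siRNA. Right, the SLC7A5 level divided by the SLC3A2 level with 3 treatments of gene length; points are libraries and bars the mean ± SD, and the groups overlap under each length.

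The other partners of the heavy chain did not share the size of this difference. SLC7A6 (ENSG00000103064; chromosome 16, 68264516 to 68301823, plus strand) had 31.7, 28.7 and 30.4 CPM in knockdown libraries 1 to 3, against 27.0, 25.7 and 28.2 CPM in control libraries 1 to 3. All 3 knockdown libraries lay slightly above the controls. Its log2 fold change was 0.17 (SE 0.13), and the protein-coding gene SLC7A6OS and 1 further gene share 55.6% of its exon bases on the opposite strand, which makes the value uncertain. SLC7A11 (ENSG00000151012; chromosome 4, 138164097 to 138242349, minus strand) was near the low end of detection, with 3.19, 1.66 and 2.84 CPM in knockdown libraries 1 to 3, against 3.37, 4.22 and 2.99 CPM in control libraries 1 to 3. The groups overlapped, the log2 fold change was -0.46 (SE 0.33), and its antisense gene had at most 6 reads in a library. Expressed per kilobase, xCT mRNA stood at 0.843 ± 0.258 TPM in knockdown and 1.13 ± 0.201 TPM in control libraries (SD, n = 3 each).

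The cationic carrier gene SLC7A1 (ENSG00000139514; chromosome 13, 29509410 to 29595688, minus strand) had 343, 261 and 267 CPM in knockdown libraries 1 to 3, against 349, 354 and 353 CPM in control libraries 1 to 3. The controls lay within a few CPM of each other; knockdown 1 was just under them and the other knockdown libraries well below. The log2 fold change was -0.28 (SE 0.11), and -0.42 without knockdown 1.

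Of the neutral exchangers, SLC1A5 was lower and SLC1A4 was not separate between groups. SLC1A5 (ENSG00000105281; chromosome 19, 46774883 to 46788594, minus strand) had 760.0, 624 and 636 CPM in knockdown libraries 1 to 3, against 961, 976 and 917 CPM in control libraries 1 to 3. The groups did not overlap, and the log2 fold change was -0.50 (SE 0.10) or 70.8% of control. Genes on the opposite strand share 23.8% of its exon bases. The longer overlap is with an antisense gene of 308 to 359 reads in knockdown and 339 to 473 reads in control libraries, while SLC1A5 had 13823 to 16559 reads in knockdown and 21930 to 23889 reads in control libraries. SLC1A4 (ENSG00000115902; chromosome 2, 64988477 to 65023865, plus strand) had 20.6, 19.8 and 16.1 CPM in knockdown libraries 1 to 3, against 21.4, 21.3 and 19.3 CPM in control libraries 1 to 3, with a log2 fold change of -0.14 (SE 0.16).

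The sodium-coupled carriers varied more within groups than between them. SLC38A1 (ENSG00000111371; chromosome 12, 46183063 to 46270017, minus strand) had 4.78, 11.4 and 4.07 CPM in knockdown libraries 1 to 3, against 5.30, 8.36 and 8.44 CPM in control libraries 1 to 3. SLC38A2 (ENSG00000134294; chromosome 12, 46358189 to 46372867, minus strand) had 9.73, 19.6 and 9.41 CPM in knockdown libraries 1 to 3, against 9.86, 14.6 and 20.8 CPM in control libraries 1 to 3. For both genes knockdown 2 was the highest knockdown library and control 1 the lowest control library. This order was not particular to them. Some amino acid sensing genes, such as LARS1 and SAR1B, had it too, and others, such as TSC1, did not. The part of library differences in this order was not tested. The log2 fold changes were -0.13 (SE 0.34) for SLC38A1 and -0.23 (SE 0.32) for SLC38A2. Without knockdown 2 they were -0.77 and -0.68, while SLC38A1 stood at 0.06 without knockdown 1 and 0.14 without knockdown 3, and SLC38A2 at 0.08 without control 3, so the sign of both depended on single libraries.

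Set against the fit over all genes, edgeR called 3 of the 9 members lower (SLC3A2, SLC7A5 and SLC1A5) and 0 higher, with 0 higher also at an unadjusted p under 0.05, by DESeq2 and by limma-voom. Across all tested genes 12.9% were called, 6.66% lower and 6.27% higher. In 4 members, SLC7A1 added, every knockdown library lay below every control library, as in 15.1% of all tested genes. Since the members were picked on this comparison, nothing is read from these shares. The median log2 fold change was -0.28 over the members and 0.03 over all tested genes. Knockdown 1 was the library with the highest RNA5-8SN3 level. It also had the highest IGF2BP1 level of its group (1.59 CPM, against 1.09 and 0.806 CPM in knockdowns 2 and 3). SLC7A5, SLC3A2, SLC1A5 and SLC7A1 were highest of their group in knockdown 1. So were SLC7A6, which lay above the controls, SLC7A11 and SLC1A4, while SLC38A1 and SLC38A2 were highest in knockdown 2. Without knockdown 1 the log2 fold changes of SLC7A5, SLC3A2, SLC1A5 and SLC7A1 were -1.55, -1.57, -0.60 and -0.42. The part of RNA composition, in which knockdown 2 also stood apart by its RN7SL1 level, was not tested. The order of IGF2BP1 did not hold between knockdowns 2 and 3. IGF2BP1 was higher in knockdown 2, where SLC7A5, SLC1A5 and SLC7A1 were lower and SLC3A2 was nearly equal. The IGF2BP1 levels rest on 29, 25 and 21 reads, and a link between them and the transporter levels was not tested.

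The order of the levels within the controls was SLC7A5, SLC3A2, SLC1A5 (878 ± 25.02 TPM), SLC7A1 (141 ± 2.31 TPM), SLC7A6 (10.9 ± 0.560 TPM), SLC1A4 (9.16 ± 0.475 TPM), SLC38A2 (7.14 ± 2.66 TPM), SLC38A1 (2.27 ± 0.567 TPM) and SLC7A11 (SD, n = 3 each). SLC1A4 and SLC38A2 overlapped between libraries and the other neighbours did not. In the same gene order, the GC content of the longest principal transcripts was 61.1, 58.1, 61.3, 52.7, 47.0, 52.6, 38.1, 41.3 and 35.4%. The part of base composition in the order of the levels was not tested. After knockdown SLC1A5, at 643 ± 77.8 TPM, stood above SLC3A2, at 496.0 ± 27.4 TPM (SD, n = 3 each). With principal transcript lengths SLC3A2 kept the higher place, at 461 ± 19.4 against 234 ± 26.2 CPM per kilobase, so that order rests on the length used. Those lengths also put SLC1A4 next to SLC7A6 in the controls, at 4.53 ± 0.265 and 4.28 ± 0.204 CPM per kilobase, within their spread.

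Copies of the members took few or no reads. The pseudogenes SLC7A5P1 and SLC7A5P2, partial copies of SLC7A5, had 0 reads in all 6 libraries. Whether reads that map to several places were counted was not examined, so 0 reads do not show that these copies are silent. AC126696.2, antisense to SLC7A5 over 5.71% of its exon bases, had 38, 53 and 51 reads in knockdown libraries 1 to 3, against 138, 164 and 237 reads in control libraries 1 to 3, while SLC7A5 had 46321 to 58188 reads in knockdown and 143000 to 158476 reads in control libraries. Whether those reads stem from the antisense strand cannot be told apart, since the libraries keep strand but no source used here gives the strand setting of the counting. SLC3A2, SLC7A1, SLC1A4, SLC38A1 and SLC38A2 share no exon bases with another gene in GENCODE release 29. The deposited length of SLC3A2, 6392 bases, exceeds its 5178 exon bases in that release. Its counted exons were therefore not all covered by this check.

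The letters GGAC, the core of many m6A sites, which IGF2BP1 is known to read, were counted in the longest principal transcript of each member in GENCODE. SLC1A5 had 6.59 per kilobase, SLC3A2 6.02, SLC7A5 5.95, SLC1A4 5.70 and SLC7A1 4.63, against a median of 4.01 per kilobase over 11745 tested genes. SLC7A6 had 3.81, SLC38A1 2.48, SLC7A11 1.24 and SLC38A2 1.02 per kilobase. The 4 members with the fewest GGAC were also the 4 with the lowest GC content, at 35.4 to 47.0% against a median of 51.0%. A match is not a methylated base.

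The genes whose profile over the 6 libraries was most like that of SLC7A5 were JADE2 (distance 0.16), GALNT14 (0.18), PBXIP1 (0.23), MAP4K2 (0.24) and KRT18 (0.25). The measure is the Euclidean distance between log2 CPM values centred on their mean, over 6231 protein-coding genes with at least 10 CPM on average. For SLC3A2 they were DUSP2 (0.16), ACADVL (0.22), JADE2 (0.22), ELF3 (0.26) and GALNT14 (0.27). SLC3A2 ranked 11 among the genes nearest to SLC7A5 and SLC7A5 ranked 9 among those nearest to SLC3A2, at a distance of 0.31. Both genes were picked for their falls in these same libraries. That choice places them near each other, so nothing is read from these ranks. Among the 5 nearest to SLC7A5, KRT18 was of similar abundance in reads, at 2600 ± 283 CPM in knockdown and 6222 ± 359 CPM in control libraries (SD, n = 3 each).

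Transporters outside the 9 members were read from lists of plasma membrane, lysosomal and mitochondrial carriers, of which 28 of 51 passed the count filter. Of these, 1 rose and 4 fell at an adjusted p under 0.05 in edgeR's quasi-likelihood test, beside 6.27% higher and 6.66% lower of all tested genes. Without knockdown 1, knockdown 3, control 2 or control 3, 0 rose, and without knockdown 3 or control 1, 2 fell. In the plasma membrane list, 12 of 32 were tested, with 1 higher and 3 lower and a median log2 fold change of -0.27. Where each listed protein sits in the cell was not examined. SLC7A8, which encodes LAT2, another light chain of 4F2hc, had 13.1, 8.09 and 12.3 CPM in knockdown libraries 1 to 3, against 7.19, 5.34 and 4.95 CPM in control libraries 1 to 3. All 3 knockdown libraries lay above the controls, and SLC7A8 rose (log2 fold change 0.94, SE 0.24, adjusted p = 0.0161), but without knockdown 1, knockdown 3, control 2 or control 3 the adjusted p was 0.0668 to 0.0787. SLC7A8 was a minor light chain, at 5.91 TPM in knockdown and 2.99 TPM in control libraries, beside SLC7A5.

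SLC43A1, which encodes LAT3, a facilitative carrier of large neutral amino acids that needs no heavy chain, fell to 2.77 ± 0.662 CPM in knockdown libraries, against 6.47 ± 2.16 CPM in control libraries (SD, n = 3 each; log2 fold change -1.22, SE 0.31, adjusted p = 0.0139), with an adjusted p of 0.0846 without control 1. SLC43A2, the gene of the related LAT4, was not called, at 13.1 ± 1.24 CPM in knockdown and 17.7 ± 3.14 CPM in control libraries (SD, n = 3 each; a log2 fold change of -0.43 at an adjusted p = 0.141). SLC6A15, a neutral amino acid transporter of the SLC6 family, was low and fell, with 21, 28 and 15 reads in knockdown libraries 1 to 3 and 42, 65 and 76 reads in control libraries 1 to 3 (log2 fold change -1.36, SE 0.42, adjusted p = 0.04). Without knockdown 1, knockdown 3, control 2 or control 3 its adjusted p was 0.0553 to 0.151, and with no scaling factor 0.0597. SLC38A10 fell (log2 fold change -0.49, SE 0.10, adjusted p = 0.00509) to 177 ± 15.4 CPM in knockdown libraries, against 247 ± 17.1 CPM in control libraries (SD, n = 3 each), in all 13 alternatives; 7.91% of its exon bases lie opposite an antisense gene. SLC38A5, which carries glutamine as SNAT5 and was the most abundant of this list per kilobase, was not called, at 360 ± 14.6 CPM in knockdown and 318 ± 9.18 CPM in control libraries (SD, n = 3 each; a log2 fold change of 0.18 at an adjusted p = 0.261).

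**Figure D3:**
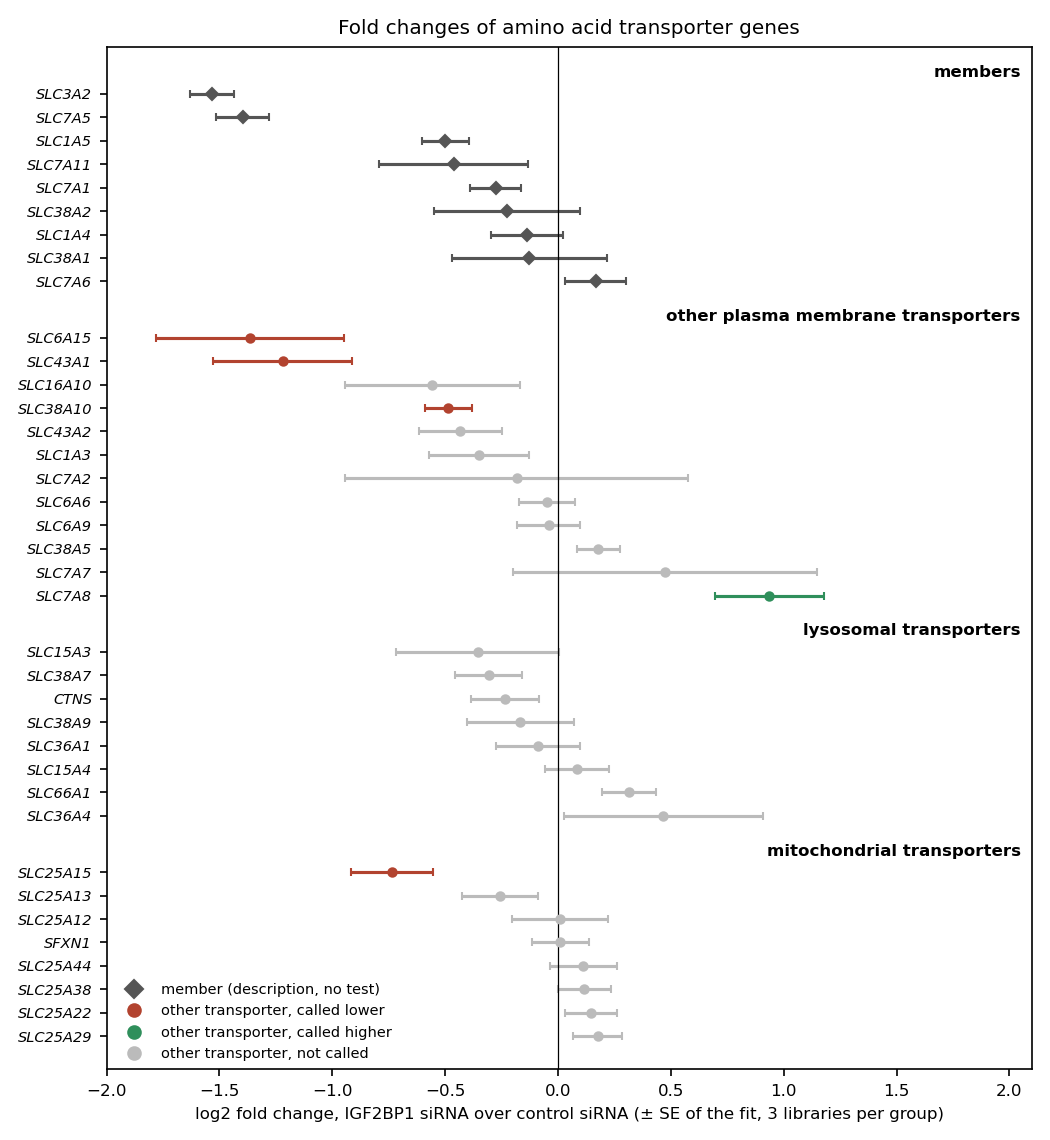
Log2 fold changes (IGF2BP1 siRNA over control siRNA, ± SE of the edgeR fit, 3 libraries per group) of the 9 members and of the 28 other transporter genes tested, ordered within each list. SLC3A2 at -1.53 and SLC7A5 at -1.40 lie apart from the other members, and SLC7A8 at 0.94 is the called rise.

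Of the lysosomal carriers 8 were tested and edgeR called 0 of them, beside 12.9% of all tested genes. Among these 8, 1 was higher and 0 lower at an unadjusted p under 0.05, and DESeq2 and limma-voom also called 0. SLC66A1, which exports cationic amino acids from the lysosome, had a fitted log2 difference of 0.31 (adjusted p = 0.0989), and SLC38A7 one of -0.31 (adjusted p = 0.208). Of 8 mitochondrial carriers tested, the ornithine carrier gene SLC25A15 fell to 15.99 ± 3.91 CPM in knockdown libraries, against 26.6 ± 3.09 CPM in control libraries (SD, n = 3 each; log2 fold change -0.74, SE 0.18, adjusted p = 0.0128), with an adjusted p of 0.0685 without knockdown 3 and 0.0609 without control 1. The abundant glutamate carrier gene SLC25A22 (0.15, adjusted p = 0.469) and the glycine carrier gene SLC25A38 (0.12, adjusted p = 0.587) were not called.

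Among 7 genes whose proteins bind or accompany 4F2hc and its light chains, 1 fell and 0 rose in edgeR. Of all tested genes 6.66% were called lower and 6.27% higher. In the list 0 were also higher at an unadjusted p under 0.05, by DESeq2 and by limma-voom. SLC16A1, the monocarboxylate transporter gene MCT1, fell to 10.7 ± 2.17 CPM in knockdown libraries, against 20.3 ± 4.53 CPM in control libraries (SD, n = 3 each; log2 fold change -0.92, SE 0.21, adjusted p = 0.00662), with an adjusted p of 0.0554 without control 2. BSG, the gene of the MCT chaperone basigin, was abundant and not called, at 2128 ± 90.0 CPM in knockdown and 2355 ± 33.2 CPM in control libraries (SD, n = 3 each; a log2 fold change of -0.15 at an adjusted p = 0.369). SLC16A3, the gene of the lactate exporter MCT4, had a fitted log2 difference of -0.05 (adjusted p = 0.839).

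Of 33 tested genes of amino acid sensing upstream of mTORC1, 2 rose and 2 fell in edgeR, beside 6.27% higher and 6.66% lower of all tested genes. The median log2 fold change of the list was 0.05. Of the Ragulator complex, which anchors the Rag GTPases at the lysosome, LAMTOR5 fell and LAMTOR1 rose. LAMTOR5 had 33.2, 50.7 and 53.9 CPM in knockdown libraries 1 to 3, against 113, 130.4 and 126 CPM in control libraries 1 to 3 (log2 fold change -1.42, SE 0.15, adjusted p = 1.59e-05). The groups were wide apart; 17.5% of the exon bases of LAMTOR5 lie opposite an antisense gene. LAMTOR1 stood at 409 ± 21.8 CPM in knockdown and 282 ± 22.3 CPM in control libraries (SD, n = 3 each; log2 fold change 0.54, SE 0.10, adjusted p = 0.00197). KPTN, a subunit of KICSTOR, which tethers the inhibitory GATOR1 complex to the lysosome, rose to 27.0 ± 3.28 CPM in knockdown libraries, against 16.5 ± 1.08 CPM in control libraries (SD, n = 3 each; log2 fold change 0.71, SE 0.16, adjusted p = 0.00581). NPRL2, a GATOR1 subunit, fell (-0.44, adjusted p = 0.0309), but had an adjusted p of 0.058 to 0.071 without knockdown 2, control 1, control 2 or control 3 and of 0.0548 with no scaling factor. LAMTOR4 was not called (0.10, adjusted p = 0.658).

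**Figure D4:**
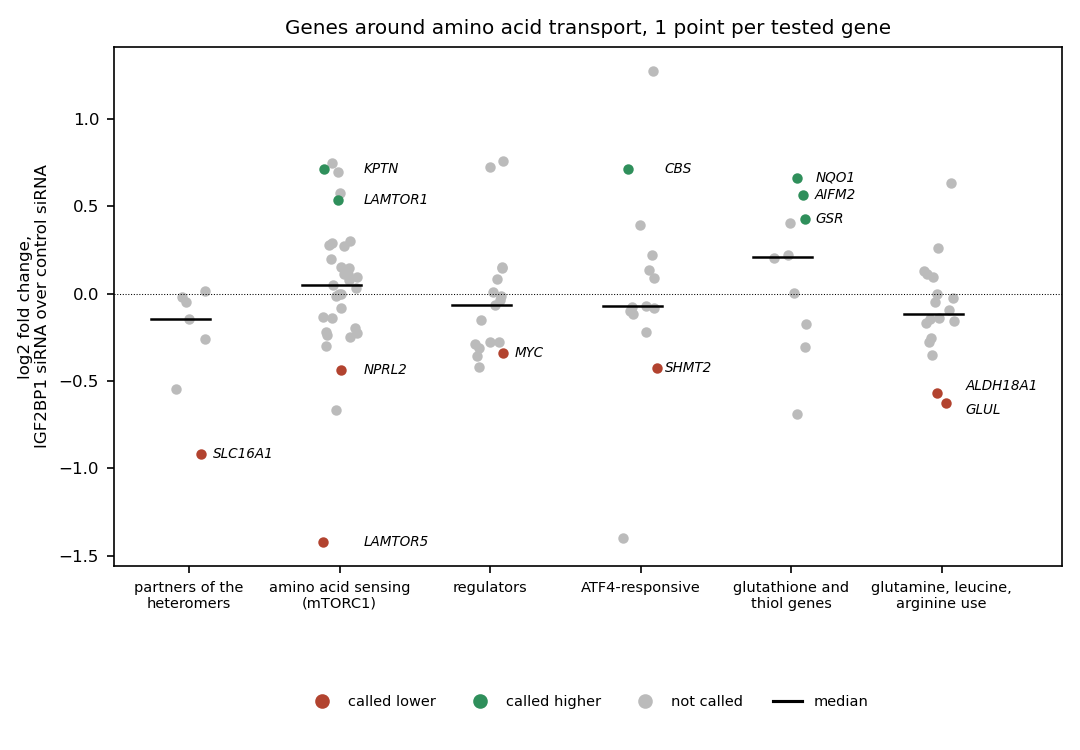
Log2 fold changes (IGF2BP1 siRNA over control siRNA) of the tested genes in 6 lists around amino acid transport, 1 point per gene with list medians as bars and called genes named. LAMTOR5 at -1.42 is the lowest called gene and SLC16A1 at -0.92 the next, and the list medians lie between -0.15 and 0.21.

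Among 17 tested genes of factors known to regulate amino acid transporters, MYC fell (log2 fold change -0.34, SE 0.11, adjusted p = 0.0449) and 0 rose in edgeR. Of all tested genes 6.66% were called lower and 6.27% higher, the background for both lists of this paragraph. Among the 17, 0 were also higher at an unadjusted p under 0.05, by DESeq2 and by limma-voom. Lower were 4 at an unadjusted p under 0.05 in edgeR, 3 by DESeq2 and 2 by limma-voom. The call of MYC had an adjusted p of 0.0791 to 0.131 without knockdown 2, knockdown 3, control 1 or control 3, and 0.0849 with no scaling factor. ATF4 stood at 556 ± 43.0 CPM in knockdown and 582 ± 29.7 CPM in control libraries (SD, n = 3 each; log2 fold change -0.07, 95% interval -0.28 to 0.15, adjusted p = 0.742), and CEBPB had a fitted log2 difference of -0.31 (adjusted p = 0.0509). Of 14 tested genes known to respond to ATF4, CBS, an enzyme of cysteine synthesis, rose (0.71, adjusted p = 0.0265; 0.0608 to 0.142 without knockdown 1, knockdown 3 or control 2), and SHMT2, the mitochondrial serine hydroxymethyltransferase, fell (-0.42, adjusted p = 0.0106; 0.0578 without knockdown 3). TRIB3, a feedback inhibitor induced by ATF4, had a fitted log2 difference of 0.22 (adjusted p = 0.166).

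Glutathione and thiol metabolism draws on the cystine that xCT imports. Of 10 genes of this metabolism or of other redox reactions, 3 rose and 0 fell in edgeR, beside 6.27% higher and 6.66% lower of all tested genes. At an unadjusted p under 0.05 1 was lower, and DESeq2 and limma-voom called 0 lower. The quinone reductase gene NQO1 had 418, 448 and 527 CPM in knockdown libraries 1 to 3, against 301, 292 and 287 CPM in control libraries 1 to 3 (log2 fold change 0.66, SE 0.11, adjusted p = 4.97e-04), with an antisense gene over 17.7% of its exon bases. AIFM2, which encodes the ferroptosis suppressor FSP1, rose (0.56, SE 0.11, adjusted p = 0.00278), as did the glutathione reductase gene GSR (0.43, adjusted p = 0.0248; 0.0574 to 0.161 without knockdown 2, knockdown 3, control 2 or control 3). GPX4 was not called, at 682 ± 68.5 CPM in knockdown and 681 ± 65.1 CPM in control libraries (SD, n = 3 each; a log2 fold change of 0.0026 at an adjusted p = 0.994). NQO1, AIFM2 and GSR do not build glutathione, and of them only GSR encodes a glutathione enzyme. The synthesis genes GCLC (0.40, adjusted p = 0.563), GCLM (-0.30, adjusted p = 0.344) and GSS (0.20, adjusted p = 0.195) were not called.

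Of 18 tested genes that use glutamine, leucine or arginine or make proline, 2 fell and 0 rose in edgeR; 1 was higher at an unadjusted p under 0.05, and DESeq2 and limma-voom called 0 higher. GLUL, the glutamine synthetase gene, had 132, 100.2 and 122 CPM in knockdown libraries 1 to 3, against 180.5, 183 and 182 CPM in control libraries 1 to 3 (log2 fold change -0.62, SE 0.11, adjusted p = 0.00135). ALDH18A1, an enzyme of proline synthesis, stood at 109.9 ± 16.2 CPM in knockdown and 163 ± 3.96 CPM in control libraries (SD, n = 3 each; log2 fold change -0.57, SE 0.12, adjusted p = 0.00358). The abundant ASS1 (-0.14, adjusted p = 0.445), which makes argininosuccinate, and GOT2 (-0.02, adjusted p = 0.932), a mitochondrial transaminase, were not called. Genes on the opposite strand also share 9.51% of the exon bases of SHMT2, 10.8% of those of NPRL2 and SLC25A22, 11.8% of those of CEBPB and 18.4% of those of LAMTOR4. Taking the 6 lists of partners, sensing, regulation, ATF4 response, thiols and amino acid use as 1, 6 of 99 tested genes were higher and 7 lower, beside 6.27% and 6.66% of all tested genes.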

How the data were processed

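The authors deposited 1 table of raw read counts (genes by 6 libraries). The submitters' processing notes name featureCounts 2.0.0, HISAT2 2.1.0, SAMtools 1.10, cutadapt 2.8 and the build hg38, without their order. Strand setting and annotation release: not given in the sources used here. Another column, the gene length in bases, was deposited by the authors and used for TPM. Columns were matched to samples by library name.

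Genes passing filterByExpr (minimum count 10, minimum total 15) were fitted in R 4.3.3 by edgeR 4.0.16 (TMM, robust dispersions, glmQLFit, glmQLFTest, 2 groups, no covariate), with Benjamini-Hochberg adjustment over 14649 genes and calls at an adjusted p under 0.05. CPM is TMM scaled; the SE is the log2 fold change over the root of the quasi-likelihood F. Members and lists were chosen with earlier results of these data known. Some genes of the lists are not reported here and stand outside the list counts. Genes named from each list were up to 4 called per direction and the 2 most abundant per kilobase. SLC43A2, SFN, KRT5, KRT6A, KRT14, CDH1, PDGFRB, GCLC, GCLM, GSS, LARS1, SAR1B and TSC1 were named after their values were seen. Alternatives were RLE or no scaling, no or a stricter count filter, the replicate number as a block, DESeq2 1.42.0, limma-voom (limma 3.58.1) and leaving out each library; the fit was tested on simulated data. Gene positions and exon overlaps come from GENCODE release 29 (GRCh38, the assembly called hg38).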

Additional observations from a re-analysis of the deposited data

How the results depend on the processing

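The members were chosen on this comparison, so the ranges of their values over refits of the same counts are a description. Without 1 library the log2 fold change was -1.58 to -1.52 for SLC3A2, -1.55 to -1.33 for SLC7A5, -0.60 to -0.46 for SLC1A5 and -0.77 to 0.14 for SLC38A1. With no scaling factor SLC3A2 was at -1.45 and SLC7A6 at 0.25. Of the 18 called genes named from the lists, 8 kept their call in all alternatives that tested them, 10 lost it in at least 1, and 0 reversed. Over all genes, 529 to 828 were higher and 702 to 1141 lower without 1 library (587 higher without knockdown 3, 585 without control 1, 529 without control 2). The other transporters had 2 higher with no scaling factor, with the stricter filter (5 CPM in 3 libraries) and with the replicate block, and 0 to 1 higher without 1 library; 2 were lower with the stricter filter, where fewer genes are tested, and 2 to 4 without 1 library. The SLC7A5 to SLC3A2 ratio was 2.36 in knockdown and 2.16 in control libraries with no length, and 1.12 and 1.03 with principal transcript lengths, an alternative chosen after seeing the data. Whether the replicate number pairs the libraries was not settled. Correlations of deviations from the group means were 0.27, 0.13 and -0.11 for numbers 1 to 3, and knockdowns 2 and 3 correlated best with another number. The deviations within a group depend on each other, so these correlations cannot decide it. With the replicate block 1158 genes were higher and 1273 lower, against 918 and 975 without it. Members near 3 CPM, such as SLC7A11, rest on 38 to 98 reads a library, which limits their precision.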
